A study of Caenorhabditis elegans with 9 samples.

Results

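The genes described here are those whose RNA was higher in hypoxia in wild type C. elegans and not in a hif-1 mutant. They were chosen from spotted 2-colour arrays by 3 conditions on the log2 ratio of hypoxia (H) over normoxia (N): a wild type mean of 0.7 or more, every wild type value above 0, and a hif-1 mutant mean of 0.2 or less. Of 7200 named genes, 49 met these thresholds (0.681%), and 47 remained as members after 1 neuropeptide-like gene (nlp-68) and 1 gene of a disordered protein family (idpc-7) were left out by name. The wild type and hif-1 values therefore made the list and are given below as description, with no test. The vhl-1 mutant values took no part in the choice and carry the tests.

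HIF-1 is the oxygen-regulated transcription factor of the worm. When oxygen is plentiful, the prolyl hydroxylase EGL-9 marks it and VHL-1, the recognition subunit of a ubiquitin ligase, has it degraded, whereas in hypoxia it is spared and binds target genes with its partner AHA-1. Loss-of-function hif-1 mutants lack the factor, and where vhl-1 is lost HIF-1 is present in normoxia as well, so that RNA of a HIF-1 target can be high in both RNAs of an array. An array ratio shows only the difference between H and N, not the level in either.

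The study used 9 arrays of total RNA, 3 for each of wild type, the hif-1 mutant and the vhl-1 mutant. On each array H and N came from the same genotype and replicate number. The alleles, the stage of the animals, the oxygen level the time in hypoxia and the way the strains were made are not stated in the labels. H is read as hypoxia and N as normoxia from the series' title. Every H sample carried Cy3 and every N sample Cy5, so the hypoxia response of a spot and a dye effect of that spot cannot be told apart within a genotype. The sign of the ratio (H over N) is likely, not stated, and base 2 of the logarithm is assumed; with the opposite sign every high value below would be a low value. Each array gave values for 21296 to 21487 of 21888 spots. Arrays correlated with each other at 0.0722 to 0.703 over all spots. Neither hif-1 nor vhl-1 has a named spot, so the genotypes could not be checked in the values. A ratio holds no level, so the tissue could not be checked either: of the marker genes of muscle, intestine, hypodermis, neurons, pharynx, germ line and sperm, only the hypodermal dpy-7 and col-19 were measured, and neither passed the test in the vhl-1 mutant. The response cannot separate fewer cells of a type from less RNA per cell.

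Of the 47 members, 46 are protein coding genes in the RefSeq annotation of WBcel235 and 1, F53C3.5, is a pseudogene. Most (40) carry only a sequence name in the gene names used here. No share over all named genes was counted, and no nhr or unc gene was among the named spots. The count is therefore not read as a trait of the members. A gene symbol was available for 7: chtb-1, snrp-40.1, lotr-1, bltp-2, gex-4, mip-2 and slfl-3. One spot measured each of 46 members, and 2 spots measured F57B9.1. All 9 arrays gave a value for 42 members, and the other 5 lacked 1 value each. The wild type means ran from 0.70 to 2.17 with a median of 0.89, and 15 members had a mean of 1 or more. The hif-1 mutant means ran from -1.30 to 0.19 with a median of 0.00. In 23 members the hif-1 mean was below 0, and in 10 it was -0.5 or less. The choice capped the hif-1 means at 0.2, and the median hif-1 mean over all named genes was also 0.00. A mean close to 0 can come from scattered arrays, as in T05D4.2 (-1.19, 0.31 and 0.49), and does not show that a response was absent.

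**Figure D1:**
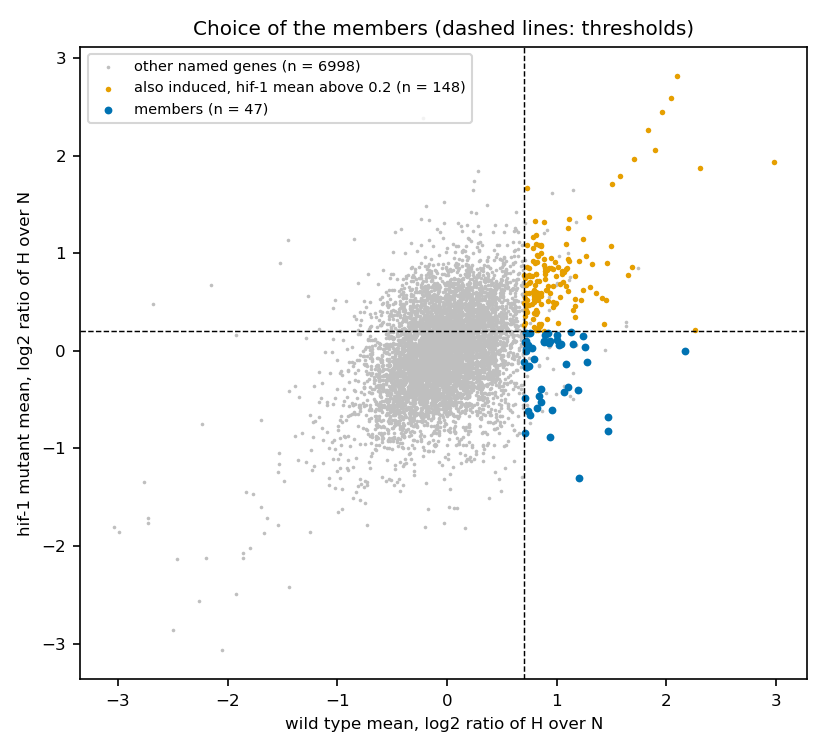
Mean log2 ratio of H over N in wild type (x axis) against the hif-1 mutant (y axis) for named genes, 1 point per gene. The 47 members lie to the right of the wild type threshold of 0.7 and below the hif-1 threshold of 0.2 (dashed lines), next to 148 genes that met the wild type conditions with a higher hif-1 mean. Other named genes in the part of the members had a wild type value not above 0 or were left out by name.

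The thresholds cut through a continuous cloud of genes. Just inside the wild type threshold lay ZK757.1 (mean 0.703), slfl-3 (0.705) and F09F7.6 (0.707). Just outside it lay pugs-5 (0.695), nanp-1 (0.693) and F08D12.4 (0.688). On the hif-1 side Y37A1A.2 (0.192), ZC190.4 (0.184) and C14B1.3 (0.183) were the last to be kept, while F56H11.2 (0.204), C06G3.3 (0.206) and Y41E3.6 (0.209) were the first to be lost. These distances are far smaller than the SD over 3 arrays of a typical member, whose median was 0.52 in wild type and 0.48 in the hif-1 mutant.

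T28F4.3 (chromosome I, 7484062 to 7486293, WBcel235, as all positions here) had the highest wild type mean. Its values were 5.92, 0.25 and 0.35 on wild type arrays 1, 2 and 3, against -0.01, -0.04 and 0.06 in the hif-1 mutant. Its mean of 2.17 ± 3.25 (SD, n = 3) thus rests on array 1 alone. In the vhl-1 mutant all 3 values were below 0, at -0.25, -0.60 and -0.26.

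chtb-1 (chromosome III, 9347768 to 9355462), named for chitin binding, had wild type values of 0.69, 1.06 and 2.67. The hif-1 mutant arrays gave -0.69, -0.21 and -1.15, and those of the vhl-1 mutant -1.15, -0.76 and -0.43. The wild type arrays lay apart from those of both mutants. The vhl-1 mean of -0.78 ± 0.36 (SD, n = 3; limma adjusted p = 0.054) did not pass the test.

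snrp-40.1 (chromosome X, 11298036 to 11299784) encodes a homologue of a WD-repeat protein of the U5 snRNP, a part of the spliceosome. Its wild type values were 0.30, 2.15 and 1.94, and its hif-1 values -1.06, -0.73 and -0.66. No array of these 2 genotypes overlapped. In the vhl-1 mutant it was at 0.02, 0.00 and 0.89, between the others and not past the test (mean 0.30 ± 0.51, SD, n = 3; limma adjusted p = 0.42). Its paralogue snrp-40.2, which is no member, had means of 0.44 in wild type, then -0.32 in the hif-1 mutant and -1.01 ± 0.25 (SD, n = 3) on the vhl-1 mutant arrays, where limma called it lower (adjusted p = 0.0214).

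F21D12.3 (chromosome II, 7319898 to 7322912) was high on every wild type array, at 1.12, 1.69 and 1.01. Its hif-1 values of 0.46, -0.72 and -0.07 lay below all of them, and so did its vhl-1 values of 0.47, -0.17 and 0.79. F57B9.1 (chromosome III, 6962340 to 6963307) was at 0.77, 1.33 and 1.61 in wild type and at 0.15, 0.51 and -0.22 in the hif-1 mutant. Its 2 spots had wild type means of 1.29 and 1.18 and hif-1 means of 0.01 and 0.28, so the second spot alone would have missed the hif-1 threshold. In the vhl-1 mutant the gene was at -0.57, -0.23 and 0.60, on both sides of 0.

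Other members of high wild type mean were less even over the arrays. F56C4.2 (chromosome IV, 10639277 to 10642784) was at 0.03, 2.07 and 1.46 in wild type, and its first value only just met the condition of lying above 0. It was below 0 on both hif-1 arrays with a value (-0.63 and -0.18) and on all 3 vhl-1 arrays (-0.93, -0.17 and -0.51). M05D6.5 (chromosome II, 8480487 to 8482203) had wild type values of 0.63, 1.14 and 1.67 and hif-1 values of -0.38, 0.10 and 0.47. Its vhl-1 values were all above 0, at 0.18, 0.37 and 1.13, with a mean that did not pass the test (0.56; limma adjusted p = 0.152). C07A4.2 (chromosome X, 10172198 to 10174179) was at 0.67, 0.81 and 1.84 in wild type, at -0.45, -0.76 and 0.10 in the hif-1 mutant, and at -0.23, -0.31 and -0.87 in the vhl-1 mutant, where no array overlapped wild type.

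Both Y37A1A.2 and T05D4.2 showed scattered values in the mutants. Y37A1A.2 (chromosome IV, 13905991 to 13912297) had 2 wild type values, 1.02 and 1.24, and its hif-1 values of -0.01, -0.20 and 0.78 lay below them. Its vhl-1 values were -0.71, 0.29 and -0.31. T05D4.2 (chromosome III, 13561719 to 13563082) was at 0.68, 1.63 and 0.92 in wild type, but at -1.19, 0.31 and 0.49 in the hif-1 mutant and at 0.81, -0.63 and -0.50 in the vhl-1 mutant. A single vhl-1 array of this gene thus reached the wild type range.

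**Figure D2:**
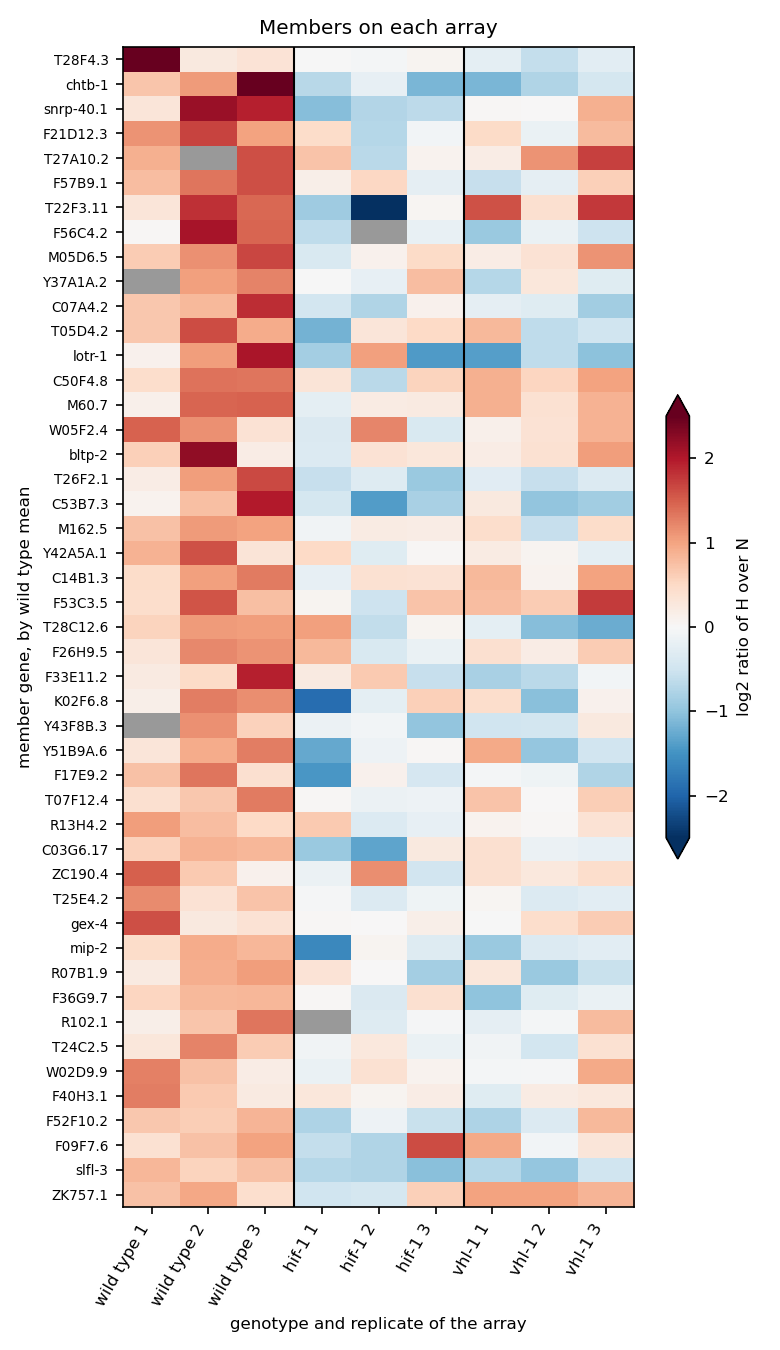
Log2 ratio of H over N of the 47 members (rows, by wild type mean) on each of the 9 arrays (columns), with colours saturated beyond 2.5 in either direction and missing values in grey. The wild type block is red throughout because the choice asked for it, the hif-1 block is mixed, and the vhl-1 block holds red rows such as T22F3.11 and ZK757.1 and blue rows such as lotr-1 and slfl-3.

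The wild type arrays did not contribute alike. The median over members was 0.58 on array 1, 1.03 on array 2 and 1.01 on array 3. Among the 44 members with 3 wild type values, array 1 gave the lowest in 29, array 2 in 5 and array 3 in 10. Array 1 gave the highest value in 9, among them gex-4 (1.62, against 0.24 and 0.36), W02D9.9 (1.25, against 0.73 and 0.18) and W05F2.4 (1.47, against 1.15 and 0.37). In the hif-1 mutant the medians over members were -0.19, -0.17 and 0.02 on arrays 1, 2 and 3. Of the members, 29 had every hif-1 value below every wild type value, a count that the choice favours. In 10 members every hif-1 value present was below 0, and in 1, F40H3.1, every value was above 0 (0.28, 0.06 and 0.19). No shares over all named genes were taken for these 3 counts.

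In the vhl-1 mutant the question is whether genes chosen for a response in wild type and not in the hif-1 mutant respond when vhl-1 is mutated. Their vhl-1 means ran from -1.02 to 1.26 with a median of 0.01, beside a median of -0.01 over the 20956 features tested. The mean was above 0 in 24 of 47 members (51.1%; 46.8% of all named genes). Each of the 3 values was above 0 in 13 members (27.7%), where 24.4% of named genes met that condition, and below 0 in 12 (25.5%), where 27.7% did. A vhl-1 mean of 0.2 or less, the threshold used for the hif-1 mutant, was seen in 29 members (61.7%) and in 68.4% of named genes. The arrays differed: the median over members was 0.08, -0.14 and 0.31 on vhl-1 arrays 1, 2 and 3, beside -0.01, -0.02 and -0.07 over all named genes, and array 3 gave the highest value in 27 members, array 1 in 17 and array 2 in 3. No shares over all named genes were taken for these counts. Over the 148 other genes that met the wild type conditions the medians were 0.45, 0.63 and 0.94, also highest on array 3.

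limma, fitted to the 3 vhl-1 arrays alone with p-values corrected by the Benjamini-Hochberg procedure across all features, called 4 members higher in H (8.51%) and 1 lower (2.13%). Over all features it called 5.96% higher and 7.37% lower, and over the 7190 named genes in the same fit 4.1% and 5.7%. The share called higher was thus above both backgrounds and the share called lower below both, but with 4 genes and 1 gene these counts are not read as a result about the members as a set. At an unadjusted p under 0.05, 9 members were higher (19.1%; 16% of all features and 13.1% of named genes) and 7 lower (14.9%; 16.7% and 15.4%). Without vhl-1 array 3 no member was called in either direction, and only 0.432% and 2.86% of all features were called higher and lower.

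**Figure D3:**
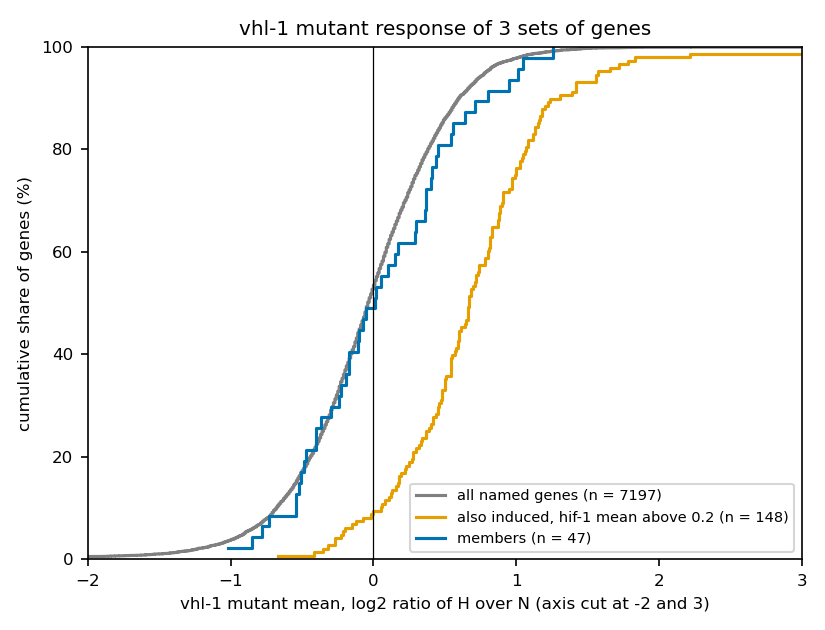
Cumulative share of genes (y axis, percent) by vhl-1 mutant mean log2 ratio (x axis) for the 47 members, the 148 genes that met the wild type conditions with a hif-1 mean above 0.2, and all named genes. The curve of the members (median 0.01) runs beside that of all named genes (median -0.04), and the curve of the 148 genes (median 0.67) lies to the right.

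The genes most like the members are the 148 that met the same wild type conditions but had a hif-1 mean above 0.2. From these 148 genes none was left out by name, unlike from the members. They therefore include the HIF-1 target F22B5.4, with means of 2.26 in wild type and 0.21 in the hif-1 mutant. Their wild type means were much the same, with a median of 0.88 against 0.89 in the members. In the vhl-1 mutant their median was 0.67. Of these 148 genes, 74.3% had every vhl-1 value above 0 and 46.6% a vhl-1 mean of 0.7 or more, against 27.7% and 12.8% of the members and 7.13% of all named genes for the latter. limma called 45 of them higher (30.4%) and 0 lower, and at an unadjusted p under 0.05 it had 98 higher and 1 lower. The sets were divided by their hif-1 values, and over all named genes hif-1 and vhl-1 means correlate (r = 0.592, n = 7193 genes that share arrays and dye orientation), so this difference between lists is given as a description.

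T22F3.11 (chromosome V, 3612158 to 3614553) had the highest vhl-1 mean of the members. It was at 0.31, 1.83 and 1.44 in wild type, at -0.89, -3.06 and 0.04 in the hif-1 mutant, and at 1.59, 0.41 and 1.77 in the vhl-1 mutant. The vhl-1 arrays spanned much the same range as wild type and lay above all hif-1 arrays. Its vhl-1 response of 1.26 ± 0.74 (SD, n = 3; SE of the fit 0.288) passed the test (limma adjusted p = 0.029), a 2.39-fold rise. Its low hif-1 mean rests mainly on array 2.

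ZK757.1 (chromosome III, 9868611 to 9871132) was the most even of the members called in the vhl-1 mutant, at 1.01, 1.00 and 0.85. It rose by 0.95 ± 0.09 (SD, n = 3; fit SE 0.198; limma adjusted p = 0.0214), a 1.94-fold rise. Wild type values were 0.73, 0.96 and 0.42, and hif-1 values -0.49, -0.43 and 0.59. All vhl-1 arrays lay above all hif-1 arrays and 2 of them above every wild type array.

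The spot of the pseudogene F53C3.5 (chromosome II, 3899840 to 3900783) was at 0.78, 0.63 and 1.74 in the vhl-1 mutant. This response of 1.05 ± 0.60 (SD, n = 3; SE of the fit 0.261) passed the test (limma adjusted p = 0.0371), as did that of C50F4.8 (chromosome V, 9517519 to 9518859), at 0.80 ± 0.24 (SD, n = 3; fit SE 0.208; limma adjusted p = 0.0417). C50F4.8 was at 0.88, 0.53 and 1.00 in the vhl-1 mutant, within its wild type range of 0.43 to 1.36. F53C3.5 had wild type values of 0.43, 1.57 and 0.75 and hif-1 values of 0.07, -0.51 and 0.71, so its genotypes overlapped. RNA of a related gene that binds the pseudogene's spot cannot be told apart from its own.

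These 4 calls were sensitive to the arrays used. All were lost without vhl-1 array 3, with adjusted p of 0.166 for T22F3.11, 0.0936 for ZK757.1, 0.191 for F53C3.5 and 0.199 for C50F4.8. Without vhl-1 array 2, ZK757.1 (adjusted p = 0.0997) and C50F4.8 (0.098) were lost, and C50F4.8 also with arrays scaled to the same spread (0.0527). Centring within print runs, here 32 stretches of consecutive spot numbers, lost C50F4.8 (0.0737) and F53C3.5 (0.078). T27A10.2 and M60.7 were then called higher. With all 9 arrays in 1 fit, which shares the spread of the arrays that chose the members, 2 members were called higher and 1 lower (4.03% and 5.15% of all features). There F53C3.5 (adjusted p = 0.0493) and ZK757.1 (0.0314) passed and T22F3.11 (0.112) and C50F4.8 (0.086) did not, and slfl-3 was the 1 called lower.

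A further 2 members had a vhl-1 mean of 0.7 or more without passing the test. T27A10.2 (chromosome X, 3585957 to 3586592) was at 0.19, 1.12 and 1.71, a mean of 1.01 ± 0.77 (SD, n = 3; limma adjusted p = 0.0577), beside wild type values of 0.89 and 1.62 on the 2 arrays that measured it. Its hif-1 values were 0.71, -0.68 and 0.09. M60.7 (chromosome X, 8257998 to 8261175) was at 0.88, 0.38 and 0.87 (mean 0.71 ± 0.29, SD, n = 3; adjusted p = 0.0614), above its hif-1 values of -0.25, 0.21 and 0.23 on every array. In wild type M60.7 was at 0.13, 1.46 and 1.48. Together with the called genes this makes 6 members (12.8%) with a vhl-1 mean that reached the wild type threshold.

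**Figure D4:**
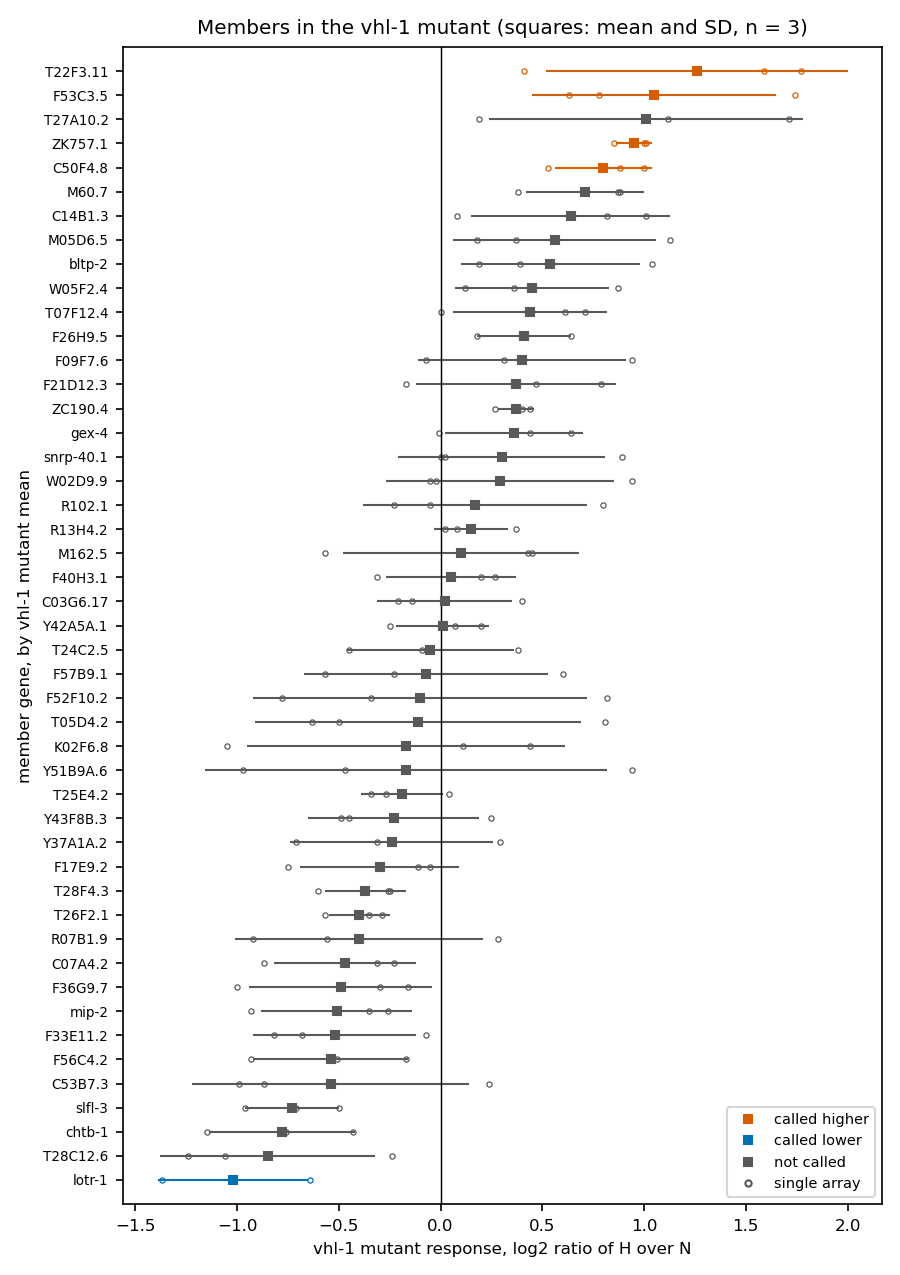
vhl-1 mutant log2 ratio of H over N (x axis) of each member (rows, by mean); squares and bars are the mean and SD of 3 arrays, open circles the single arrays, and colours the limma calls. The members lie on both sides of 0, from lotr-1 at -1.02 to T22F3.11 at 1.26, with 4 called higher and 1 lower.

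lotr-1 (chromosome I, 8487618 to 8490938) encodes a protein with LOTUS and Tudor domains that resides in germ granules. It was the only member that limma called lower in H in the vhl-1 mutant. Its values there were -1.37, -0.64 and -1.03, below every wild type value (0.11, 1.05 and 2.05). It fell by 1.02 on the log2 scale with an SD of 0.37 (n = 3; fit SE 0.223; limma adjusted p = 0.0259). The hif-1 arrays were spread widely, at -0.85, 1.03 and -1.42. The call was lost without vhl-1 array 3 (adjusted p = 0.124) and with all 9 arrays in 1 fit (0.143). mip-2 (chromosome V, 13669353 to 13671958), which encodes another LOTUS domain protein of germ granules, was at 0.45, 0.93 and 0.83 in wild type, then -1.61, 0.06 and -0.32 in the hif-1 mutant and -0.93, -0.35 and -0.26 in the vhl-1 mutant. Its vhl-1 mean of -0.51 did not pass (limma adjusted p = 0.151).

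slfl-3 (chromosome I, 10808590 to 10810489), of the Schlafen-like family, had the smallest vhl-1 SD among the 6 members of lowest vhl-1 mean. It was at 0.83, 0.55 and 0.73 in wild type, at -0.71, -0.76 and -1.04 in the hif-1 mutant and at -0.71, -0.96 and -0.50 in the vhl-1 mutant. Wild type lay on one side of 0 and both mutants on the other. Its vhl-1 mean was -0.73 ± 0.23 (SD, n = 3; limma adjusted p = 0.054), past the test only with all 9 arrays (0.0467) or without vhl-1 array 1 (0.044) among the alternatives run. Among the 25 measured genes of the Schlafen-like families slfl and srlf, slfl-3 was the only member. Of these 25, limma called 1 higher and 5 lower in the vhl-1 mutant, with a median of -0.32, where over all features 5.96% were called higher and 7.37% lower with a median of -0.01; the family was not tested as a set.

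T28C12.6 (chromosome V, 6334014 to 6336119) and C53B7.3 (chromosome X, 6844755 to 6845975) completed the 6 members of lowest vhl-1 mean with F56C4.2. T28C12.6 was at 0.56, 1.07 and 1.05 in wild type, at 1.03, -0.61 and 0.06 in the hif-1 mutant and at -0.24, -1.06 and -1.24 in the vhl-1 mutant. Its vhl-1 mean of -0.85 (limma adjusted p = 0.0584) did not pass. C53B7.3 was at 0.09, 0.75 and 1.98 in wild type and below 0 on all hif-1 arrays (-0.43, -1.39 and -0.82). In the vhl-1 mutant it was at 0.24, -0.99 and -0.87.

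Set against the values that chose them, the vhl-1 mean lay nearer to the hif-1 mean in 39 members and nearer to the wild type mean in 8. It fell between the 2 in 29 members, at or below the hif-1 mean in 15 and at or above the wild type mean in 3 (T22F3.11, F53C3.5 and ZK757.1). Every vhl-1 value lay below every wild type value in 21 members. Choosing high wild type values favours such an order, so it is not read as a difference between genotypes. In 4 members (T22F3.11, ZK757.1, M60.7 and snrp-40.1) every vhl-1 value lay above every hif-1 value, and in 1 (T28F4.3) below. No shares over all named genes were taken for the counts in this paragraph, so they are not read as a result about the members. Across the 47 members the vhl-1 means correlated with the hif-1 means at r = 0.265 and with the wild type means at r = -0.0201, over ranges that the thresholds limit.

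Among the remaining members with a role known from their sequence, bltp-2 (chromosome I, 15041433 to 15050700) encodes a bridge-like lipid transfer protein, of a family that carries lipids between membranes. It was at 0.59, 2.21 and 0.18 in wild type, then -0.34, 0.36 and 0.29 in the hif-1 mutant and 0.19, 0.39 and 1.04 in the vhl-1 mutant. F26H9.5 (chromosome I, 9312635 to 9314488) encodes a phosphoserine aminotransferase, an enzyme of serine synthesis. It was at 0.30, 1.21 and 1.13 in wild type, then 0.81, -0.38 and -0.17 in the hif-1 mutant and 0.40, 0.18 and 0.64 in the vhl-1 mutant. Neither passed the vhl-1 test (limma adjusted p = 0.151 and 0.208), although every vhl-1 value was above 0 in both.

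The pathway itself is nearly absent from the named spots. None of 11 regulators of HIF-1 (among them egl-9, rhy-1, aha-1 and cul-2) and none of 19 glycolytic genes were measured. Of 13 genes listed as HIF-1 targets only F22B5.4 was. It is no member, having been left out by name, and its means of 2.26 ± 1.21 (wild type), 0.21 ± 0.48 (hif-1) and 0.30 ± 0.38 (vhl-1; SD, n = 3) would have missed the hif-1 threshold. Of the gene families searched by symbol, only the splicing genes (snrp-40.1 of 6) and the Schlafen-like genes (slfl-3 of 25) held a member. The families with the most measured genes, 41 nssp genes and 31 chemoreceptor genes, held 0.

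Members were spread over the genome. Chromosome V held 14 (29.8%, against 23.2% of the named genes with a position), X held 8 (17%, 16.4%), I, II and III held 7 each (14.9%, against 13.9%, 18.3% and 12.3%) and IV held 4 (8.51%, 15.8%). No member lay within 10 kb of another, and the closest pair, F56C4.2 and R102.1 on chromosome IV, was 43.3 kb apart. By spot number they were less evenly placed. What is called a print run here is a stretch of consecutive spot numbers, 32 stretches of 684 places in all. The division was set for the processing, and the labels name no print runs. Members lay in 20 of these runs. The eighth run held 8 members (T27A10.2, Y37A1A.2, C07A4.2, C53B7.3, T28C12.6, F33E11.2, Y51B9A.6 and F36G9.7) among 231 named genes. The fourth and the last held 5 each. Over all spots of the fourth run the 3 wild type medians averaged 0.27, the highest of any run. Wild type array 1 had a median of 0.51 over the last run, which holds gex-4, slfl-3 and ZK757.1, and of 0.39 over the run of T22F3.11. The eighth run had a median of 0.39 on wild type array 3. When each array was centred within print runs, 41 genes met the conditions, 28 of them members; 7 of the 8 members in the eighth run were kept, but only 1 of 5 in the fourth (chtb-1), 1 of 5 in the last (Y43F8B.3) and 0 of the 4 in the run of T22F3.11. T22F3.11, F56C4.2, ZK757.1 and slfl-3 were thus no longer chosen after this centring, and neither was F53C3.5, which lies in another run.

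Single arrays decide much of the list. Without wild type array 1, 193 genes met the conditions, without array 2, 77, and without array 3, 93, and these held 38, 35 and 34 of the 47 members. With a wild type array left out, fewer values had to lie above 0, which by itself lets in more genes. Without hif-1 array 1, 2 or 3 the lists had 43, 55 and 56 genes, with 37, 36 and 41 members. Scaling the arrays to the same spread gave 80 genes, with 45 members among them. Only 8 members met the conditions in all 6 lists with an array left out: chtb-1, snrp-40.1, F21D12.3, T22F3.11, F56C4.2, C07A4.2, M162.5 and C03G6.17. M162.5 (chromosome V, 19761051 to 19766764) was at 0.73, 1.07 and 1.00 in wild type, then -0.08, 0.21 and 0.18 in the hif-1 mutant and 0.43, -0.57 and 0.45 in the vhl-1 mutant. C03G6.17 (chromosome V, 7379745 to 7381108) was at 0.58, 0.87 and 0.83 in wild type, then -0.92, -1.32 and 0.24 in the hif-1 mutant and 0.40, -0.14 and -0.21 in the vhl-1 mutant. After print run centring 5 of these 8 still met the conditions, without T22F3.11, F56C4.2 and C03G6.17. Of the 8, T22F3.11 alone passed the vhl-1 test, and the vhl-1 means of the others ran from -0.78 to 0.37.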

How the data were processed

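The deposited table was taken to hold log2 ratios between the channels; base and direction are not stated, and N over H was assumed and the sign turned. What the authors did before deposition is not given in the sources used here; array medians as deposited ran from -0.062 to 0.061. Missing cells numbered 4459 (3303 null, 1156 empty). Of 21888 spots, 7774 had 1 gene name and 14114 none; symbols and positions came through gene identifiers (7741 spots matched) from the RefSeq table of WBcel235. Each array was centred on its median and spots of a gene were averaged. limma 3.58.1 in R 4.3.3 tested the mean of the 3 vhl-1 arrays against 0 for 20956 features with at least 2 vhl-1 values (7190 named genes; 2 residual degrees of freedom, prior 6.21, median SE 0.22), adjusted by Benjamini and Hochberg, with a threshold of 0.05. The vhl-1 arrays were fitted alone because a spread shared with the arrays of the choice would not be independent of it. On simulated data with independent errors for this comparison, 57.6% of changes of 1 log2 unit and 100% of 2 units were recovered, and 0.121% of unchanged features were called. Each simulation changed 100 features per size among 20956, whereas 1249 higher and 1545 lower were called in the data. The cutoff of the adjustment depends on that number, so the recovered shares do not carry over to the test of the data. The 3 arrays per genotype limit the precision, signal over background is unknown, and p-values reflect only the spread between samples, which may be technical. The members, gene lists and tests were chosen with earlier results of these data known. Named in full were the 12 members of highest wild type mean, those called in the vhl-1 mutant and the 6 highest and 6 lowest there, and by name those at the thresholds, in families or with a known role; gex-4, W02D9.9, W05F2.4, F40H3.1, M162.5, C03G6.17 and snrp-40.2 were named after their values were seen. A planned search of promoters for motifs was not made, as no sequence was used here.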

Additional observations from a re-analysis of the deposited data

Results flagged for a closer look

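All members lay above 0 on the wild type arrays by the choice, and some lay wholly below 0 in a mutant. The differences between genotypes were not tested, and the choice of the members favours them. Every hif-1 value present was below 0 in 10 members, and no share over all named genes was taken for this count. The difference in log2 response (hif-1 mutant minus wild type) was -2.15 for chtb-1, -2.28 for snrp-40.1, -1.59 for F56C4.2, -1.57 for T26F2.1 and -1.82 for C53B7.3. It was -1.25 for Y43F8B.3, -0.92 for T25E4.2, -0.90 for R102.1, -1.2 for F52F10.2 and -1.54 for slfl-3.

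Every vhl-1 value was below 0 in 12 members (25.5%), against 27.7% of all named genes. This count is therefore not read as a result about the members. The difference (vhl-1 mutant minus wild type) was -2.54 for T28F4.3, of which wild type array 1 supplies most, -2.25 for chtb-1, -1.72 for F56C4.2, -1.57 for C07A4.2, -2.08 for lotr-1 and -1.36 for T26F2.1. It was -1.74 for T28C12.6, -1.40 for F33E11.2, -1.13 for F17E9.2, -1.25 for mip-2, -1.21 for F36G9.7 and -1.43 for slfl-3. chtb-1, F56C4.2, T26F2.1 and slfl-3 are in both groups, and chtb-1, F56C4.2 and T26F2.1 share the fourth print run, whose median over the wild type arrays was 0.27; its part in these differences was not tested.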

How the results depend on the processing

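The choice gave 47 genes, 80 with arrays scaled to the same spread and 43 to 193 with an array left out. The 4 members called higher in the vhl-1 mutant became 3 with scaled arrays (4.49% of all features). They became 2 with all 9 arrays in the fit (4.03% of all features) and 0 to 6 with a vhl-1 array left out. The 6 were called without array 1, where 12.3% of all features were called higher. The 1 called lower became 0 to 6 with an array left out (6 without array 1, where 12.5% of all features were called lower). With all 9 arrays and the replicate number as a block, 1 was called higher and 0 lower (F53C3.5 then had a limma adjusted p of 0.05). Over all features that fit called 3.61% higher and 5.15% lower. Whether the replicate numbers pair the arrays could not be settled, as deviations were taken from means of only 3 arrays. Deviations of same-numbered arrays of different genotypes correlated at -0.204 to 0.272 over 9 pairs, 2 of them above 0.1. Arrays of different number gave -0.257 to 0.27. The highest value, 0.272, was that of wild type array 1 and hif-1 array 1, and not every array correlated best with its own number. The causes of these changes were not tested. With deposited values, named genes alone or complete vhl-1 values the counts stayed at 4 and 1. Print run centring also gave 4 and 1, with T27A10.2 and M60.7 in place of C50F4.8 and F53C3.5. These counts keep the 47 members as first chosen. Of the genes called higher there, T22F3.11 and ZK757.1 no longer met the conditions of the choice after this centring. The median vhl-1 response of the members was -0.06 to 0.16 with an array left out. Over 20 members and 10 alternatives, 170 results kept sign and side of the threshold, 17 lost a call, 8 gained one and 5 changed sign without being called: F57B9.1 (0.03 with print run centring, -0.40 to 0.18 with a vhl-1 array left out) and T05D4.2 (-0.57 to 0.16 with an array left out). Of all features 89 were called higher and 589 lower without vhl-1 array 3, 298 and 783 without array 2, and 2536 and 2575 without array 1, where 1249 and 1545 were called with all arrays.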

Other observations

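The same thresholds with wild type and hif-1 mutant exchanged (hif-1 mean 0.7 or more, every hif-1 value above 0, wild type mean 0.2 or less) were met by 128 named genes (1.78%), against 49 for the thresholds as used. The SD over all named genes was 0.74, 0.74 and 0.54 on hif-1 arrays 1, 2 and 3. On wild type arrays 1, 2 and 3 it was 0.56, 0.58 and 0.56. A fixed threshold passes more genes on a wider array, so the counts are not read as a difference between genotypes. Among the 14114 unnamed spots, 130 (0.921%) met the conditions of the members; these are not described because no gene name was given for them.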
